A study of Homo sapiens with 6 samples.

Results

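The 10 genes described here are the lactate dehydrogenases (LDHA, LDHB, LDHC and LDHD), the lactate carriers of the plasma membrane (SLC16A1, SLC16A3 and SLC16A7), their chaperone basigin (BSG) and both subunits of the mitochondrial pyruvate carrier (MPC1 and MPC2). They were taken by name, and all 10 were found among the 58735 genes of the table. RNA-seq was available for 6 libraries of PC9-BrM3 cells, a line derived from the human lung adenocarcinoma line PC9 by repeated injection into the left ventricle of immunodeficient mice, isolation and expansion. In 3 libraries AKR1B10, which encodes an aldo-keto reductase, was silenced by shRNA (BrM3-shAKR1B10), and 3 libraries carried a negative control shRNA (BrM3-shNC), whose genotype the labels give as WT. Both groups thus carried a lentiviral shRNA vector fused to luciferase and were kept in routine culture in RPMI1640 with fetal bovine serum. According to the legends of the paper, the silenced cells carried a single AKR1B10 hairpin, so the RNA-seq holds no other hairpin, and both groups come from the same metastatic line. Nothing in the labels says that the libraries came from separate cultures, so the p-values measure only the spread between these libraries, which may be technical.

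Lactate dehydrogenase turns pyruvate into L-lactate and back, and in doing so exchanges NADH for NAD. LDHA and LDHB encode the subunits that mix in its tetramers, the A subunit dominating in muscle and in many tumours and the B subunit in heart. LDHC is the form of the testis. LDHD is a different protein, a mitochondrial flavoenzyme that oxidises D-lactate. Lactate leaves and enters cells with a proton through the monocarboxylate transporters, of which MCT1 (SLC16A1) works in both directions, MCT4 (SLC16A3) is known for export in glycolytic cells and MCT2 (SLC16A7) for uptake. MCT1 and MCT4 reach the membrane with basigin. Pyruvate that is not reduced to lactate enters mitochondria through a carrier made of MPC1 and MPC2.

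The promoters of the members whose levels are highest, LDHA and BSG, are shown beside that of LDHB, since LDHA and LDHB moved together and BSG did not. They come from the RefSeq table for GRCh38.p14, which holds 17 promoters for 8 of the 10 genes (none for LDHD and SLC16A1). Each window covers the 250 bases before a transcript start, and the stretch printed is the part outside every GENCODE 29 exon. Capitals mark ACGTG or GCGTG on either strand, the core letters of the E-box CACGTG and of hypoxia response elements, which overlap each other. The LDHA stretch (chr11:18394313-18394387, plus strand), the LDHB stretch (chr12:21657972-21658092, minus strand) and the BSG stretch (chr19:572346-572564, plus strand) read as follows.
LDHA: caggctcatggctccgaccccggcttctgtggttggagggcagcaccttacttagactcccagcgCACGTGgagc
LDHB: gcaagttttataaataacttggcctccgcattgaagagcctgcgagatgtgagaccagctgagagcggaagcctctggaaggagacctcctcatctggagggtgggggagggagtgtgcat
BSG: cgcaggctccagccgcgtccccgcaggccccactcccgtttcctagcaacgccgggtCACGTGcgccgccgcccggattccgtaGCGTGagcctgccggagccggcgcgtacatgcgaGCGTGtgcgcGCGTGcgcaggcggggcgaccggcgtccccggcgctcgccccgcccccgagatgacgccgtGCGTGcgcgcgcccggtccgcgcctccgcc

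The whole window behind the LDHA stretch held CACGTG at 2 places, that behind the BSG stretch at 1 place, and the LDHB window held none of these letters. The part of the LDHA window that is not printed holds the other CACGTG and a further ACGTG on the minus strand. The table holds another window each for LDHA (chr11:18396101-18396350) and BSG (chr19:571033-571282), and neither of these held CACGTG. That of LDHA held GCGTG at 1 place. Of all 35116 promoters in the table, 6.345% held CACGTG, 18.5% held ACGTG and 32.2% held GCGTG on either strand. Among the 21021 promoters of coding genes these shares were 7.42%, 20.2% and 38.5%. A match is a description of the letters, and binding of any factor was not analysed here.

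Depth ranged from 16964504 to 18709028 reads on genes per library. AKR1B10 itself averaged 108.5 ± 1.52 FPKM (SD, n = 3) in the silenced libraries against 781.9 ± 14.6 FPKM (SD, n = 3) in the controls, as their labels say. All 8 epithelial markers were present, at means of 49.2 to 935.1 FPKM, while none of 5 lung lineage markers (NKX2-1, NAPSA, SFTPB, SFTPC and SFTA2) reached a mean of 1 FPKM. The germ cell markers of the testis, which bear on LDHC, summed to at most 0.128 FPKM in any library. Summed markers of other cell types were low and differed between the groups. Those of fibroblasts (1 of 6 at a mean of 1 FPKM, with COL1A2, DCN and LUM at 0) summed to 1.20 to 1.37 in BrM3-shAKR1B10 and 2.03 to 2.08 FPKM in BrM3-shNC, those of immune cells (0 of 6, LYZ at 0) to 0.305 to 0.362 and 0.497 to 0.566, those of brain (1 of 5, none at 0 in every library) to 2.54 to 2.73 and 3.47 to 3.57, and those of endothelium (1 of 4, KDR at 0) to 2.10 to 2.37 and 1.52 to 1.79. Most of the fibroblast, brain and endothelial sums was 1 gene each. COL1A1 was called lower (log2 fold change -0.67, adjusted p 0.00319 by limma), CDH5 was called higher (0.65, adjusted p 0.0039), and MBP was not called (-0.40). PECAM1, also of endothelium, went against its sum, at 0.233 to 0.293 in BrM3-shAKR1B10 and 0.388 to 0.513 FPKM in BrM3-shNC. The part of these markers in the results was not tested. Among the control libraries, BrM3-shNC 1 stood apart. The chi-square per gene between replicates was 4.88 and 5.42 for the pairs that include it, against 2.62 for the other control pair and 2.45 to 2.70 in BrM3-shAKR1B10. The deviations from the group mean went with the GC content of genes at a Spearman's rho of -0.40 in this library and -0.19 to 0.31 in the other 5 (over 13146 genes, which are not independent replicates). Results that rest on it are given without it as well.

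LDHA and LDHB mRNA were lower in BrM3-shAKR1B10 than in BrM3-shNC, LDHD mRNA was higher, and none of the tested carriers among the 10 genes had a called change. The test was limma on log2(FPKM + 0.1) over the 13150 genes with a mean of at least 1 FPKM, and a call needed a Benjamini-Hochberg adjusted p under 0.05 together with a log2 fold change beyond 0.5 in either direction. Of the 10 genes, 8 were tested, 2 were lower, 1 was higher and 5 were not called. Over all genes tested, 980 (7.45%) were lower and 766 (5.83%) were higher. By the adjusted p at any fold the members' counts stayed at 2 and 1, against 3044 (23.1%) and 2548 (19.4%) of all genes. The groups did not overlap for 3 of the 8 tested members and for 7191 (54.7%) of all genes tested. The median log2 fold change was 0.02 over the 8 members and -0.01 over all genes. In bulk RNA, fewer cells that express a gene and less of its RNA per cell cannot be told apart.

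**Figure D1:**
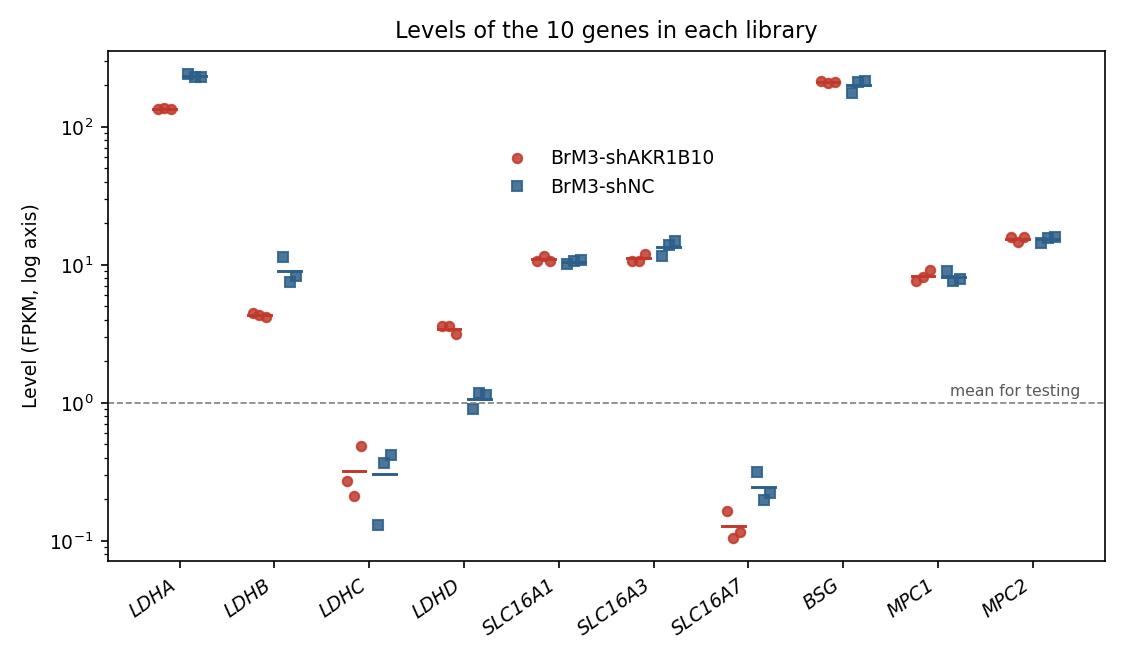
Level of each gene in each library, in FPKM on a log axis, with 3 BrM3-shAKR1B10 libraries (red circles) and 3 BrM3-shNC libraries (blue squares), short lines at the group means and a dashed line at 1 FPKM, the mean needed for testing. LDHA and LDHB sit lower and LDHD higher in every BrM3-shAKR1B10 library, and LDHC and SLC16A7 lie under the dashed line in every library.

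LDHA (ENSG00000134333, plus strand of chromosome 11 from 18394388 to 18408425, GRCh38) was the most abundant of the lactate dehydrogenases described here. Its level was 133.7, 138.0 and 134.1 FPKM in the 3 BrM3-shAKR1B10 libraries and 241.6, 229.9 and 229.2 FPKM in the 3 BrM3-shNC libraries. The groups were far apart compared with their own spread, with coefficients of variation of 1.74% and 2.97%. The mean fell to 57.9% of the control (135.3 ± 2.36 against 233.6 ± 6.94 FPKM, SD, n = 3 each), a change of -0.79 on the log2 scale (SE 0.03, 95% interval -0.87 to -0.71) with an adjusted p of 2.08e-05 (limma, Benjamini-Hochberg). Each library held between 14674 and 27531 reads on the gene, so counting error is small beside this difference.

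The decrease of LDHA was large for so abundant a gene. Ranked by level among all genes of a library, LDHA moved from places 115 to 123 in BrM3-shNC to places 209 to 225 in BrM3-shAKR1B10. It took 0.141% to 0.147% of all reads on genes in the control and 0.0849% to 0.0876% after silencing. Among the 321 genes with a mean of at least 100 FPKM, LDHA had the seventh lowest log2 fold change, and 21 of them (6.54%) were called lower and 11 higher. BSG, at a like FPKM, stood at place 216 of these 321 from the lowest.

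LDHB (ENSG00000111716, minus strand of chromosome 12 from 21635342 to 21757857) fell as well. Its level was 4.46, 4.36 and 4.16 in BrM3-shAKR1B10 and 11.3, 7.49 and 8.32 FPKM in BrM3-shNC. The control values were spread widely (coefficient of variation 22.3%), with BrM3-shNC 1 the highest, but the lowest control was still above every silenced library. The log2 fold change was -1.03 (SE 0.14, 95% interval -1.37 to -0.68, adjusted p of 0.00182 by limma), and it was -0.85 without BrM3-shNC 1 (adjusted p 6.1e-04). The reads on the gene numbered 220 to 620 per library.

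The FPKM of LDHB probably understates its level, because most of its coding transcript appears to be counted for no gene. GENCODE 29 places a readthrough gene, AC010197.2, on the same strand, and it covers 997 of the 1303 bases of the LDHB transcript ENST00000350669.5. In this table, reads on exons of more than 1 gene were apparently left out. Of 1230 genes whose exons all lie in genes of the same strand, 1136 were at 0 in every library and the rest had at most 8 reads, and all 743 genes that lie wholly in exons of the opposite strand were at 0. AC010197.2 itself was at 0 in all 6 libraries. Of that transcript, 262 bases of the last exon and 44 of the first are not shared. Over all 10 annotated LDHB transcripts 1986 of 2983 exon bases are not shared, and which transcripts the reads came from was not tested. Of the other members, MPC2 shared 22.5% of its exon bases with another gene, SLC16A3 6.04%, BSG 3.69%, SLC16A1 3.29% and the remaining 5 none. Whether the use of LDHB transcripts differed between the groups was not tested.

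The balance of LDHA and LDHB was compared within each library. By FPKM, LDHA exceeded LDHB 26.2-fold in the control and 31.3-fold after silencing, and per unshared base of the main transcripts, which assumes that all reads come from those transcripts, it exceeded it 8.69-fold and 10.4-fold. The log2 ratio of LDHB to LDHA was -4.91, -4.98 and -5.01 in BrM3-shAKR1B10 and -4.41, -4.94 and -4.78 in BrM3-shNC. The groups overlapped, and the difference of -0.25 was within the spread of the controls (exact two-sided permutation test, p = 0.2, where 0.1 is the smallest p that 3 against 3 libraries can give). Without BrM3-shNC 1 the difference was -0.11 (-0.37 without BrM3-shNC 2), and with a pseudocount of 1 it was also -0.11 (exact permutation p = 0.7).

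LDHA made up 96.7% ± 0.105 of the summed FPKM of LDHA, LDHB and LDHC in BrM3-shAKR1B10 and 96.2% ± 0.627 in BrM3-shNC (SD, n = 3 each, exact permutation p = 0.3). The difference of 0.512 percentage points was 0.166 without BrM3-shNC 1. Per unshared base these shares were 91.1% ± 0.281 and 89.5% ± 1.75. A shift between the A and B subunits was thus not detectable with these libraries. The sum of the 3 subunit mRNAs dropped from 242.9 ± 8.75 to 139.9 ± 2.29 FPKM, a scale on which LDHB is probably understated.

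LDHC (ENSG00000166796) lies directly downstream of LDHA, 3882 bases away on the same strand, yet was nearly silent in all libraries. Its level was 0.270, 0.212 and 0.484 in BrM3-shAKR1B10 and 0.130, 0.367 and 0.418 FPKM in BrM3-shNC, from 5 to 18 reads. These values overlapped, and the gene was below the level needed for testing. A level that 3 reads would give is 0.0780 to 0.0847 FPKM for this gene. The next gene along, LDHAL6A, another dehydrogenase-like gene, was also low, at 0.366 to 0.621 FPKM.

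Reads of LDHA relatives could in principle be assigned wrongly. The coding sequences of LDHA and LDHB were 68.5% identical and those of LDHA and LDHC 76.2%, and no stretch of 50 bases was shared between them. By contrast, 240 of the 950 such windows of the LDHA coding sequence (25.3%) also occur in 5 annotated LDHA pseudogenes. The 6 LDHA pseudogenes in the table together held 11 to 39 reads per library, or 0.0711% to 0.142% of the reads on LDHA. These counts do not measure how many reads were wrongly given to LDHA or lost from it, which was not tested. How reads with several matching places were counted is not given in the sources used here.

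LDHD (ENSG00000166816, minus strand of chromosome 16 from 75111860 to 75116771) moved the other way. Its level was 3.60, 3.62 and 3.16 in BrM3-shAKR1B10 and 0.901, 1.18 and 1.14 FPKM in BrM3-shNC. All silenced libraries were above all controls. The mean was 3.22 times the control (3.46 ± 0.261 against 1.07 ± 0.150 FPKM, SD, n = 3 each), with a log2 fold change of 1.61 (SE 0.13, 95% interval 1.31 to 1.91) and an adjusted p of 1.6e-04 (limma). Without BrM3-shNC 1, the lowest control, the log2 fold change was 1.497 (adjusted p 3.8e-04 by limma). The change is large but rests on few molecules, 132 to 154 reads in BrM3-shAKR1B10 and 39 to 49 in BrM3-shNC. The gene shares no exon base with another, and its neighbour 866 bases away, ZNRF1, was 8.44 ± 0.506 and 7.84 ± 0.536 FPKM, with no called change (log2 fold change 0.11).

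**Figure D2:**
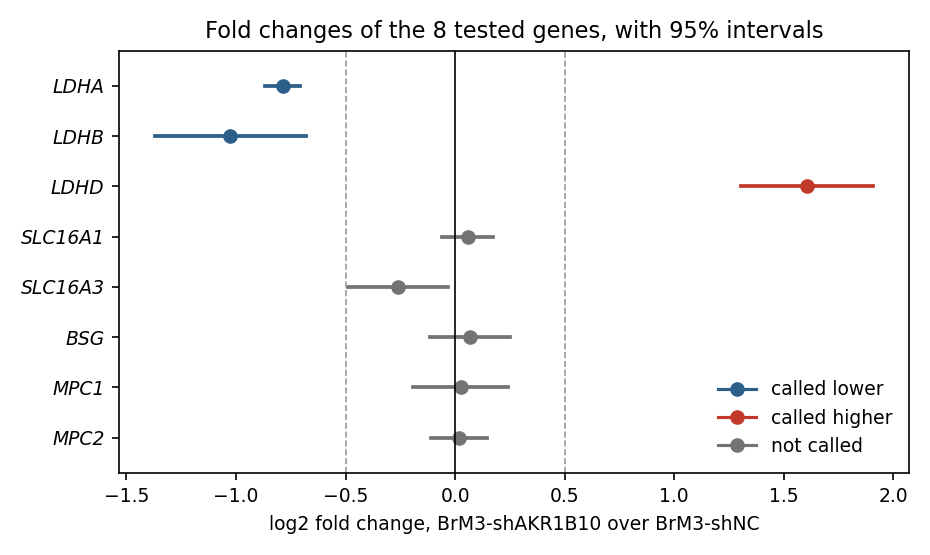
Log2 fold change of BrM3-shAKR1B10 over BrM3-shNC on the log2(FPKM + 0.1) scale for the 8 tested genes, with 95% intervals from limma (n = 3 libraries a group) and dashed lines at 0.5 in either direction. The intervals of LDHA, LDHB and LDHD lie wholly beyond a dashed line, and those of the other 5 genes lie between the dashed lines.

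The lactate carriers SLC16A1 and SLC16A3 showed no called change. SLC16A1 (MCT1, ENSG00000155380) was 10.6, 11.5 and 10.7 in BrM3-shAKR1B10 and 10.1, 10.6 and 10.8 FPKM in BrM3-shNC. These values overlapped, and the 95% interval of the log2 fold change ran from -0.06 to 0.17 around 0.06 (adjusted p 0.378, limma). The value was 0.019 without BrM3-shAKR1B10 2 and 0.032 without BrM3-shNC 1. With 951 to 1106 reads per library, a change past 0.5 on the log2 scale lies outside that interval.

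SLC16A3 (MCT4, ENSG00000141526) was 10.7, 10.7 and 12.0 in BrM3-shAKR1B10 and 11.6, 13.9 and 14.8 FPKM in BrM3-shNC. The highest silenced library was just above the lowest control, BrM3-shNC 1. The log2 fold change was -0.26 (SE 0.10, 95% interval -0.49 to -0.03) with an adjusted p of 0.0655 by limma, and it was -0.36 without BrM3-shNC 1 (adjusted p 0.0091). In neither case did it pass 0.5. The adjusted p ran from 0.00621 with limma's voom on the recovered reads to 0.168 without BrM3-shNC 3, so whether SLC16A3 is lower at all depends on the setting.

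SLC16A7 (MCT2, ENSG00000118596) was the lowest member, below the level needed for testing. It was 0.166, 0.105 and 0.116 in BrM3-shAKR1B10 and 0.315, 0.199 and 0.221 FPKM in BrM3-shNC, from 26 to 79 reads. The groups did not overlap, and the mean was 52.6% of the control. Fitted with no filter on low values, the log2 fold change was -0.59 with an adjusted p of 0.254 (limma), so no change was called.

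BSG (basigin, ENSG00000172270), the partner that MCT1 and MCT4 need, was more abundant by FPKM than either. It was 213.2, 207.2 and 211.1 in BrM3-shAKR1B10 and 176.7, 212.6 and 215.2 FPKM in BrM3-shNC. BrM3-shNC 1 was the lowest of all, and the remaining 5 libraries lay between 207.2 and 215.2. The log2 fold change was 0.07 (95% interval -0.11 to 0.25, adjusted p 0.504 by limma), and -0.02 without BrM3-shNC 1. BSG has a GC content of 61.6% and LDHD 63.1%, against 44.0% for LDHA and 46.5% for LDHB. The median log2 fold change of all tested genes within 2 percentage points of the GC content of each tested member was between -0.03 and 0.03.

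The ratios between the carriers were read library by library. The log2 ratio of SLC16A3 to SLC16A1 was 0.02, -0.10 and 0.17 in BrM3-shAKR1B10 and 0.20, 0.40 and 0.45 in BrM3-shNC. The groups did not overlap, and the difference was -0.32 (exact two-sided permutation p = 0.1, the smallest possible), or -0.40 without BrM3-shNC 1. The log2 ratio of BSG to the sum of SLC16A1 and SLC16A3 was 3.32, 3.22 and 3.22 against 3.02, 3.12 and 3.07. This difference of 0.18 also left no overlap (exact permutation p = 0.1), and it was 0.16 without BrM3-shNC 1. Both ratios contain SLC16A1 and SLC16A3, so they are not separate results, and BSG alone had a log2 fold change of 0.07 with overlapping groups. Neither ratio can reach a p under 0.05 in a design of this size.

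**Figure D3:**
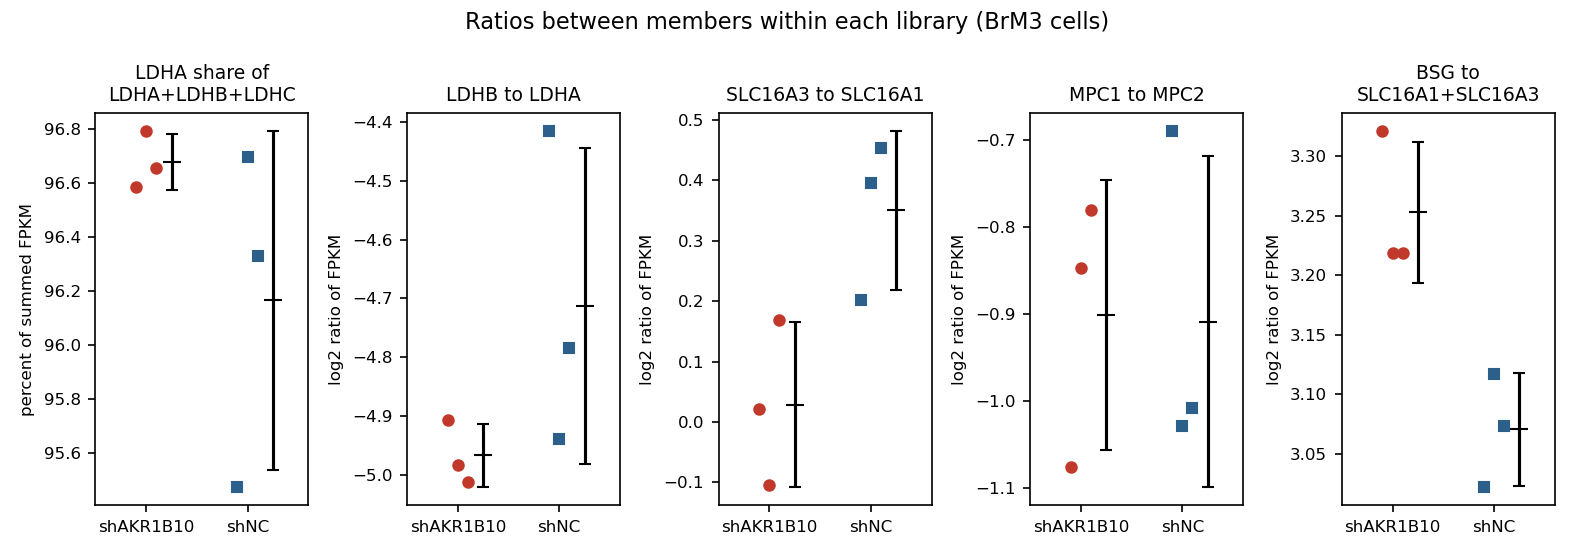
The 5 ratios within each library, in percent of summed FPKM for the first panel and as log2 ratios of FPKM for the others, with 3 libraries a group (points) and mean ± SD (black bars). Each panel has its own scale, which does not start at 0. The groups overlap in the LDHA share, LDHB to LDHA and MPC1 to MPC2, and not in the ratios of SLC16A3 to SLC16A1 and of BSG to SLC16A1 plus SLC16A3.

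The mitochondrial pyruvate carrier had no called change. MPC1 (ENSG00000060762) was 7.58, 8.10 and 9.23 in BrM3-shAKR1B10 and 8.95, 7.61 and 7.87 FPKM in BrM3-shNC. MPC2 (ENSG00000143158) was 16.0, 14.6 and 15.8 in BrM3-shAKR1B10 and 14.4, 15.5 and 15.8 FPKM in BrM3-shNC. The groups overlapped for both genes. The log2 fold change was 0.03 for MPC1 (95% interval -0.19 to 0.24, adjusted p 0.842 by limma) and 0.02 for MPC2 (95% interval -0.11 to 0.15, adjusted p 0.812 by limma). Both intervals lie well within 0.5 in either direction. The log2 ratio of MPC1 to MPC2 averaged -0.90 ± 0.155 and -0.91 ± 0.190 (SD, n = 3 each), a difference of 0.01 (exact permutation p = 1) whose sign turned with the library left out, from -0.053 without BrM3-shAKR1B10 3 to 0.12 without BrM3-shNC 1. Of the 2552 exon bases of MPC2, 575 also lie in DCAF6 on the opposite strand, so its level may be understated if reads there were left out.

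In the control the order of the members by FPKM was LDHA, BSG, MPC2, SLC16A3, SLC16A1, LDHB, MPC1, LDHD, LDHC and SLC16A7. After silencing, by FPKM, BSG stood above LDHA and MPC1 above LDHB, both with no overlap of their values. Neighbours in this order whose control values overlapped were MPC2 and SLC16A3, SLC16A1 and LDHB, LDHB and MPC1, and LDHC and SLC16A7. The order depends on the length used, since FPKM divides by all exon bases of a gene (6210 for LDHA and 3797 for BSG). Per unshared base of the main transcripts LDHA was first in both groups, at 7.63, 8.05 and 7.69 reads per base in BrM3-shAKR1B10 against 7.24, 7.18 and 7.19 for BSG, and LDHB stood above MPC1 in every library. On that scale SLC16A3 exceeded SLC16A1 4.38-fold in the control, against 1.275-fold by FPKM, while the difference of their log2 ratio between the groups is the same.

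Around these members, 85 further genes of lactate, pyruvate and glucose handling were read from 8 lists. Of these 85, 62 were tested, 6 were lower and 4 were higher, and at any fold 16 were lower and 15 higher. Their median log2 fold change was -0.05. The shares over all genes tested are those given above.

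**Figure D4:**
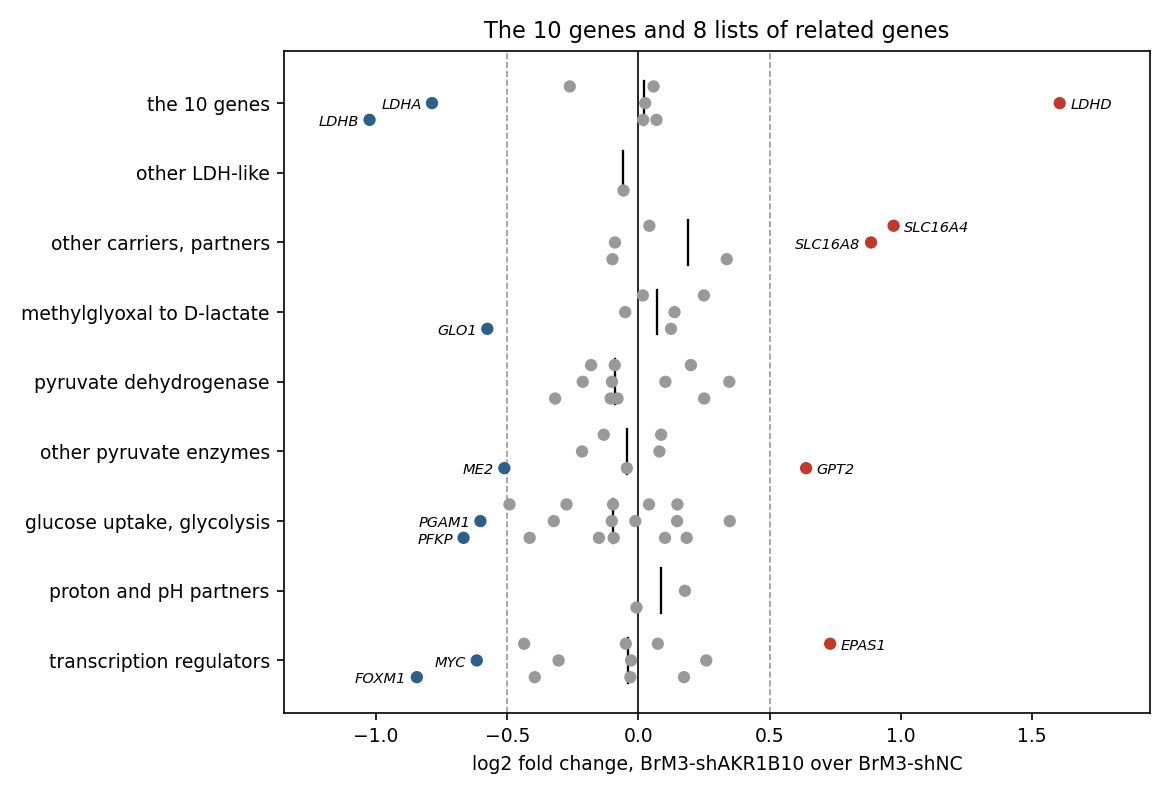
Log2 fold changes of BrM3-shAKR1B10 over BrM3-shNC for the 8 tested members and the 62 tested genes of the other lists, 1 point a gene, called genes in colour and named, the short black line at each list's median and dashed lines at 0.5. LDHB and LDHD lie farther from 0 than any gene on their side in the other lists.

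Among the other carriers of the SLC16 family and their partners, 6 of 16 genes were tested, none was lower and 2 were higher. SLC16A4, an orphan member, was 22.4, 23.5 and 21.0 in BrM3-shAKR1B10 and 12.9, 11.03 and 10.1 FPKM in BrM3-shNC (log2 fold change 0.97, adjusted p 3.7e-04 by limma). SLC16A8, the lactate carrier MCT3 of the retinal pigment epithelium, was 4.87 ± 0.464 and 2.58 ± 0.161 FPKM (log2 fold change 0.89, adjusted p 4.3e-04 by limma). SLC16A13, named after its value was seen, was the third to pass at any fold, with a log2 fold change of 0.34. EMB, which encodes embigin, the other chaperone of these carriers, was at 0 in all 6 libraries, as was the sodium-coupled lactate carrier SLC5A8. Of 3 further LDH-like genes, UEVLD alone was tested, at 11.1 ± 0.398 and 11.6 ± 0.416 FPKM (log2 fold change -0.06, adjusted p 0.331 by limma).

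D-lactate, the substrate of LDHD, arises mainly from methylglyoxal, a by-product of glycolysis, through GLO1 and HAGH. Of 6 genes of this route 1 was lower and none was higher. At any fold 1 was lower and 2 were higher, against 23.1% and 19.4% of all genes tested. GLO1, which carries out the first step of the route, was 34.9, 33.4 and 34.7 in BrM3-shAKR1B10 and 52.1, 52.7 and 49.0 FPKM in BrM3-shNC. The groups were apart, with a log2 fold change of -0.58 (SE 0.04, adjusted p 9.7e-05 by limma). HAGH, which releases D-lactate, was 5.20 ± 0.344 and 5.16 ± 0.650 FPKM (log2 fold change 0.02, adjusted p 0.907 by limma).

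On the pyruvate side, none of the 11 tested genes of the pyruvate dehydrogenase complex, its kinases and phosphatases was called. By the adjusted p at any fold, 2 were lower and 2 higher, against 23.1% and 19.4% of all genes tested. The groups did not overlap for 7 of the 11, and for 54.7% of all genes tested. PDHA1, the catalytic subunit of the complex, was 28.9 ± 1.065 and 31.0 ± 1.28 FPKM (log2 fold change -0.10, adjusted p 0.114 by limma). PDK1, a hypoxia-induced kinase that inhibits the complex, was at 0.893 ± 0.104 and 1.14 ± 0.0974 FPKM (log2 fold change -0.32, adjusted p 0.190 by limma). PDK4, another of these kinases, was too low to be tested, at 0.338, 0.441 and 0.424 in BrM3-shAKR1B10 and 1.097, 1.15 and 0.958 FPKM in BrM3-shNC, with no overlap. Fitted with no filter on low values, its log2 fold change was -1.22 (adjusted p 0.00801 by limma). Of 7 tested enzymes that make or use pyruvate, ME2, a mitochondrial malic enzyme, was just past the fold needed (log2 fold change -0.51, adjusted p 0.00364 by limma), and GPT2, which exchanges pyruvate and alanine, was higher, at 14.3 ± 0.133 against 9.13 ± 0.0916 FPKM (log2 fold change 0.64, adjusted p 3.1e-05 by limma). With a library left out ME2 ran from -0.58 to -0.47, and it lost its call without BrM3-shNC 1 and without BrM3-shAKR1B10 2 or 3. PKM, which makes pyruvate, was 183.3 ± 2.68 and 200.9 ± 4.74 FPKM (log2 fold change -0.13, adjusted p 0.0145 by limma), below the fold needed for a call.

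In glucose uptake and glycolysis, 17 of 18 genes were tested, 2 were lower and none was higher, with a median log2 fold change of -0.10. The lower genes were PFKP, a phosphofructokinase (17.0 ± 0.502 against 27.0 ± 1.65 FPKM, log2 fold change -0.67, adjusted p 1.7e-04 by limma), and PGAM1, a phosphoglycerate mutase (106.5 ± 1.86 against 161.7 ± 2.12 FPKM, log2 fold change -0.60, adjusted p 2.7e-05 by limma). At any fold 6 of these 17 genes were lower and 3 higher, where 23.1% and 19.4% of all genes tested were. GAPDH was 1365 ± 69.85 and 1459 ± 26.8 FPKM (log2 fold change -0.10, adjusted p 0.146 by limma). The log2 fold changes of LDHA and LDHB were below those of every tested gene of this list. Of the proton and pH partners, 2 of 7 were tested and neither was called. CA9, a carbonic anhydrase of the cell surface, was below the level for testing, at 0.136, 0.265 and 0.203 in BrM3-shAKR1B10 and 0.751, 0.921 and 1.02 FPKM in BrM3-shNC, from 4 to 31 reads. With no filter on low values its log2 fold change was -1.74 (adjusted p 0.00784 by limma), and 38.5% of its exon bases also lie in ARHGEF39 on the opposite strand.

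Of 13 transcription factors known to act on LDHA or SLC16A genes, 12 were tested, 2 were lower and 1 was higher. Over all genes tested, 7.45% were lower and 5.83% higher. Without a fold threshold 5 of the 12 were lower and 3 higher, against 23.1% and 19.4% of all genes. FOXM1 was 10.7 ± 0.540 and 19.2 ± 0.885 FPKM (log2 fold change -0.85, adjusted p 7.0e-05 by limma). MYC, a factor that binds E-boxes, was 25.9, 25.0 and 25.3 in BrM3-shAKR1B10 and 38.5, 39.6 and 38.8 FPKM in BrM3-shNC (log2 fold change -0.62, adjusted p 2.9e-05 by limma). HIF1A mRNA was 38.1 ± 1.001 and 36.15 ± 1.09 FPKM (log2 fold change 0.07, adjusted p 0.150 by limma), while EPAS1, which encodes HIF-2α, was higher, at 37.8 ± 1.12 against 22.7 ± 0.955 FPKM (log2 fold change 0.73, adjusted p 5.5e-05 by limma). Whether any of these changes bears on LDHA or LDHB was not tested.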

How the data were processed

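The authors deposited a table of FPKM values for 58735 genes in the 6 libraries. Per the submitters' notes and the paper, poly-T selected mRNA was sequenced, aligned with HISAT2 2.0.5 and counted with featureCounts 1.5.0-p3, and replicates were not pooled. The genome build is not given in the sources used here, but all gene positions and lengths match GENCODE 29 (GRCh38). Reads were recovered from FPKM and gene length, and 100% of values were whole to within 0.001 reads. A level of 3 reads is 0.163 to 0.177 FPKM for a gene of 1000 bases, a limit that covers counting error alone. The test, limma 3.58.1 (R 4.3.3, eBayes with a trend, Benjamini-Hochberg adjustment), used log2(FPKM + 0.1) of every gene whose mean FPKM reached 1. Fold changes on this scale understate those of low genes. Ratios used the exact permutation test in Python 3.11.15 with scipy 1.17.1. The scripts were tested on simulated data.

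Groups came from the labels, and the main test assumed no pairing of libraries by replicate number. The 10 members, the 8 other pathway lists and the marker lists were chosen with earlier results of these data known. A pair of genes from these lists is not reported here and is left out of the lists' counts. The text names all members, their chromosomal neighbours where a result turns on them, the called genes of each list with the lowest and highest fold changes (up to 4 a list) and 9 fixed genes whatever their change. PDK4, CA9, UEVLD, COL1A1, MBP, CDH5, PECAM1, SLC16A13, SLC5A8, LDHAL6A and the lung lineage markers were named after their values were seen. The alternatives were pseudocounts of 1 and 0.01, other filters on low values, scaling to TPM or by quantiles, eBayes with no trend, voom in place of log2 FPKM, a replicate block, other fold thresholds, each library left out in turn and, chosen after seeing the data, reads per unshared base.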

Additional observations from a re-analysis of the deposited data

How the results depend on the processing

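LDHA, LDHB and LDHD kept their direction and an adjusted p under 0.05 (limma) in every alternative that tested them. LDHA does not pass a log2 fold change threshold of 1 (-0.79), which leaves 1 lower member and, over all genes, 205 lower and 168 higher. A mean of at least 5 FPKM leaves LDHD untested, so no member was higher, and 532 genes were lower and 290 higher. With no fold threshold 3044 genes were lower and 2548 higher, and with a pseudocount of 1, 708 were lower and 497 higher. In the other 8 pathway lists, 16 genes were lower and 15 higher with no fold threshold, and 0 and 0 at a threshold of 1. With no filter on low values CA9 and PDK4 joined the lower ones, which made 8. ME2 was not called with a pseudocount of 1 (-0.37) or TPM scaling (-0.49), each leaving 5. The difference of the LDHA share (0.512 percentage points) was -0.0505 with a pseudocount of 1, 1.56 per unshared base and, with a library left out, from 0.166 (without BrM3-shNC 1) to 0.777. The difference of LDHB to LDHA (-0.25) was -0.11 with a pseudocount of 1 and ran from -0.37 to -0.11 with a library left out, and that of MPC1 to MPC2 (0.01) from -0.053 to 0.12. Per unshared base the difference of BSG to SLC16A1 plus SLC16A3 was 0.27. Leaving out 1 library turned the sign of 3 members that were not called. BSG ran from -0.023 (without BrM3-shNC 1) to 0.12, MPC1 from -0.052 (without BrM3-shAKR1B10 3, and -0.021 without BrM3-shNC 2) to 0.095, and MPC2 from -0.021 (without BrM3-shNC 1, with -0.0056 and -9e-06 without BrM3-shAKR1B10 1 and 3) to 0.060.

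With a library left out, the log2 fold change of LDHA ran from -0.80 to -0.76, of LDHB from -1.15 to -0.85 and of LDHD from 1.497 to 1.67. The smallest of these changes, -0.76, -0.85 and 1.497, were those without BrM3-shNC 1. Whether the replicate numbers pair the libraries is not settled. Deviations from the group means correlated at -0.0155 to 0.00388 between same-numbered libraries of the groups. Between differently numbered ones the range was -0.0386 to 0.0363, and values this near each other cannot decide the question. With the replicate block 967 genes were lower and 719 higher, and 1633 genes were called in both fits, among them the same 3 members. TPM scaling moved the median of all genes by 0.04 (log2) and no member's call, but it gave 873 genes lower and 902 higher, in place of 980 and 766. LDHC and SLC16A7, with at most 18 and 79 reads a library, were below the mean FPKM needed for testing.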
